A study of Mus musculus with 5 samples.

Results

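The genes described here encode the subunits of the oxidative phosphorylation complexes in mouse embryos that lack Folr1, the gene of a folate receptor of the cell surface. Members were the probe sets with a single gene symbol whose symbol marks a nuclear-encoded subunit of complexes I to V or cytochrome c (Nduf subunits, Sdha to Sdhd, Uqcr genes, Cyc1, Cycs, Cox4 to Cox8 genes and Atp5 genes). Where a gene had several probe sets, the brightest was used, judged by mean log2(signal + 16) over the 5 arrays. The rule found 80 genes with 151 probe sets, out of 12393 genes with such a probe set on the array. They comprised 33 genes of complex I, 4 of complex II, 9 of complex III, 16 of complex IV, 17 of complex V and the gene of cytochrome c.

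Oxidative phosphorylation takes place in the inner membrane of mitochondria. Complex I (NADH dehydrogenase) and complex II (succinate dehydrogenase) pass electrons to ubiquinone, complex III (the cytochrome bc1 complex) passes them to cytochrome c, and complex IV (cytochrome c oxidase) hands them to oxygen. Complexes I, III and IV pump protons, and complex V (ATP synthase) uses the proton gradient to make ATP. Embryos around midgestation change from an energy supply that leans on glycolysis towards one with more respiration, while the heart and the chorioallantoic circulation take up their work.

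Whole C57BL6J embryos of gestation day 9.5 were profiled with Affymetrix Mouse Genome 430A arrays. There were 2 arrays of Folr1-/- embryos (homozygous knockout) and 3 arrays of Folr1+/+ embryos (wild type). The Folr1-/- embryos came from Folr1+/- dams and sires, with the dams given extra folate before and during pregnancy. A separate diet for the dams of Folr1+/+ embryos is not described, so genotype and diet cannot be told apart if the diets differed. The embryos had been separated from decidua, chorion and amnion, and no statement covers the yolk sac. The arrays of a group are called biological replicates, but the labels do not say if RNA of 1 embryo or of a pool went onto each. The p-values therefore measure the spread between these arrays.

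The median signal was between 33.0 and 33.3 on the Folr1-/- arrays and between 35.2 and 38.3 on the Folr1+/+ arrays. The ratio of the 3' to the 5' Actb control, a sign of how far the amplified RNA is shortened, was between 22.8 and 30.5 on the Folr1-/- arrays and between 21.1 and 39.5 on the Folr1+/+ arrays, so the ranges overlapped. Folr1 itself had signals of 50.2 and 41.8 in Folr1-/- embryos, against 57.0, 50.01 and 40.2 in Folr1+/+ embryos. This probe set therefore does not check the genotypes, and its place relative to the deleted part was not analysed here. Marker genes of tissues differed strongly between the groups. Their counts stand beside 8.19% of all genes tested called higher and 6.79% called lower, at an adjusted p under 0.05 in limma. All 11 tested visceral endoderm markers (of 12 listed, among them Afp, Ttr and Cubn) were higher, with summed signals of 16280 and 16491 in Folr1-/- embryos, against 3320, 2311 and 2709 in Folr1+/+ embryos. Of the markers of primitive erythroid cells 6 of 7 tested were lower (summed signals of 175 and 597 in Folr1-/- embryos, against 5336, 6301 and 5624 in Folr1+/+ embryos). Of the cardiomyocyte markers 7 of 13 were lower and Tnnc1 was higher (4970 and 5383 in Folr1-/- embryos, against 7760, 8140 and 7569 in Folr1+/+ embryos). Of the neural progenitor markers 8 of 9 were lower (407 and 451 in Folr1-/- embryos, against 1691, 1539 and 1633 in Folr1+/+ embryos). Both tested trophoblast and decidua markers, Plac1 and Prl8a2, were higher (419 and 317 in Folr1-/- embryos, against 131, 121 and 125 in Folr1+/+ embryos). No marker was at 0 on every array of a group, and the dimmest, Hba-a1 and Tpbpa, were too dim to be tested. In such bulk samples fewer cells of a type and less RNA per cell cannot be told apart. The part of these tissue markers in the subunit results was not tested. Several of the markers called here had a mean under the filter in 1 group. They were Alas2, Hba-x, Klf1, Slc4a1, Hes5, Pax6, Zic1 and Nppa in Folr1-/- embryos, and Apoa2 and Prl8a2 in Folr1+/+ embryos. These genes were tested only through the group where they are high, and the counts of called markers include them. Gata1 and Fabp7, which were not called, also lay under the filter in 1 group. Xist, the RNA of the inactive X chromosome, had signals of 419 and 770.4 in Folr1-/- embryos, against 29.4, 35.7 and 24.95 in Folr1+/+ embryos, while the Y-linked Eif2s3y had 104 and 3.13 in Folr1-/- embryos, against 300.3, 345 and 372 in Folr1+/+ embryos. Folr1-/- replicate 1 thus had both RNAs, and the labels give no sex. Sex and genotype therefore cannot be told apart on these arrays, for any gene.

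Subunit genes were more often higher in Folr1-/- embryos than lower. Of the 80 genes, 73 passed the filter on dim genes and were tested. With limma and an adjusted p threshold of 0.05, 14 were higher, 1 was lower (Cox7c) and 58 did not pass. Cox7c was the 1 tested subunit gene whose mean lay under the filter in a group, Folr1-/-, so it was tested only through its higher Folr1+/+ values. The 14 are 19.2% of the tested subunit genes, against 8.19% called higher among all 7436 genes tested, and the 1 is 1.37%, against 6.79% called lower among all genes. In either direction 15.0% of all genes were called. The median log2 fold change, Folr1-/- minus Folr1+/+, was 0.27 over the tested subunit genes and 0.25 over all 80, against -0.02 over all genes tested. The sign was positive in 63 of the 73, which is 86.3%, against 47.9% of all genes. Both Folr1-/- arrays lay above all Folr1+/+ arrays in 38 of the 73 genes and below them in 3, while this held for 22.5% and 24.2% of all genes.

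The number of calls moved when an array was left out. With Folr1-/- replicate 1 left out, 2 genes were higher and 0 lower, and with Folr1-/- replicate 2 left out 6 were higher and 0 lower. These fits hold a single Folr1-/- array, which is assumed to vary like the Folr1+/+ arrays. Among the Folr1+/+ arrays, leaving out replicate 1 gave 8 higher and 1 lower, replicate 2 gave 8 and 0, and replicate 3 gave 5 and 0. Every gene called with all arrays kept its sign in each of these fits. This was fixed in advance, since the groups of each called gene did not overlap. Ndufa5 alone passed the threshold in all 17 alternative settings. Ndufa2 passed in 15 of the 16 settings that tested it, Ndufb7 and Ndufb9 in 15 of 17 and Uqcr11 in 13 of 17, and the other 10 called genes passed in 6 to 11.

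**Figure D1:**
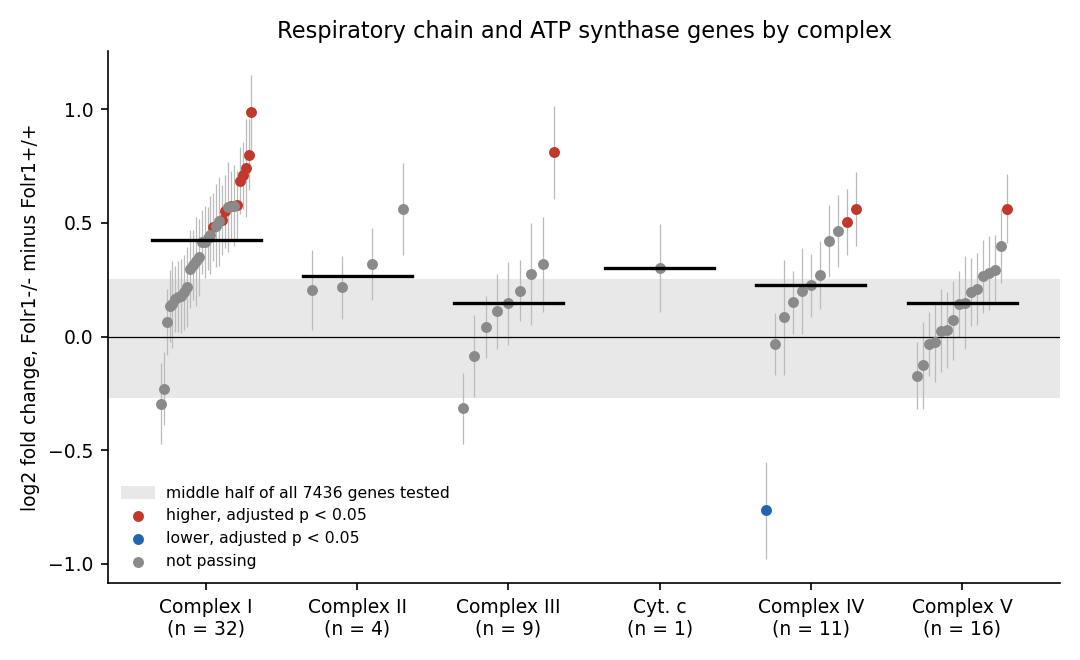
Log2 fold change (Folr1-/- minus Folr1+/+, vertical axis) of each tested subunit gene, grouped by complex along the horizontal axis. Points are genes with their standard error, red where higher and blue where lower at an adjusted p under 0.05, black lines are medians, and the grey band spans the 25th to the 75th percentile of all 7436 genes tested. Complex I has the median farthest above 0, at 0.42, and holds 10 of the 14 red points, and the blue point is Cox7c.

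The shift differed in size between the complexes. Complex I had 10 of 32 tested genes higher and 0 lower, with a median log2 fold change of 0.42. Complex II had 0 of 4 called and a median of 0.27, complex III 1 of 9 higher and a median of 0.15, complex IV 2 higher and 1 lower of 11 and a median of 0.22, and complex V 1 of 16 higher and a median of 0.15. Outside complex I, 4 of 41 genes were higher and 1 was lower, and their median was 0.20. The 31.2% of complex I genes called higher stand beside 8.19% of all genes, while the 9.76% outside complex I are close to that background. Whether the complexes differ from each other was not tested, since the genes of a list vary together on the same 5 arrays.

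The medians by array show which arrays carry the shift. Relative to the Folr1+/+ mean of each gene, the median complex I gene stood at 0.47 and 0.38 on the Folr1-/- arrays, against 0.02, -0.03 and 0.03 on the Folr1+/+ arrays. For complex V the values were 0.16 and 0.11 on the Folr1-/- arrays, against -0.09, 0.03 and -0.01 on the Folr1+/+ arrays. Complex I thus sat above the Folr1+/+ arrays on both knockout arrays, by several times the width of the Folr1+/+ values, and complex V by less. Complex IV had 0.24 and 0.22 on the Folr1-/- arrays, against -0.05, 0.09 and 0.05 on the Folr1+/+ arrays. Complex III overlapped, with 0.15 and 0.04 on the Folr1-/- arrays, against -0.02, -0.02 and 0.06 on the Folr1+/+ arrays. The median of complex III was 0.04 when Folr1-/- replicate 1 was left out and 0.03 when Folr1+/+ replicate 2 was.

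**Figure D2:**
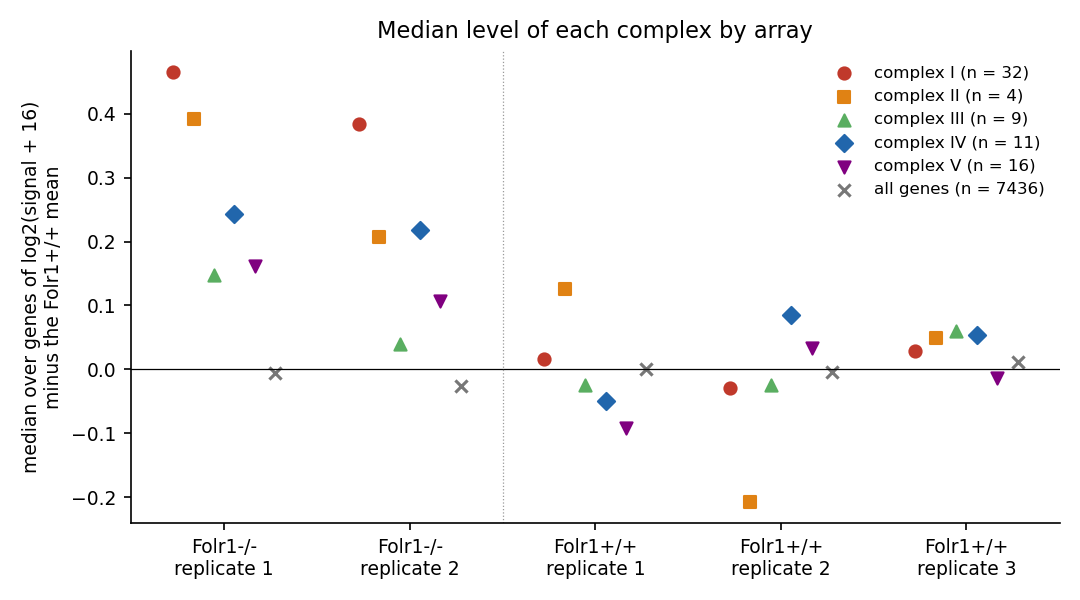
Median over the tested genes of each complex of log2(signal + 16) minus the Folr1+/+ mean of the gene (vertical axis), for the 2 Folr1-/- arrays on the left and the 3 Folr1+/+ arrays on the right. Complex I stands at 0.47 and 0.38 on the Folr1-/- arrays, and the median over all genes lies near 0 on all 5 arrays.

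Nuclear genes of the respiratory chain are classic targets of the transcription factors NRF1, GABPA, YY1 and the estrogen-related receptors, so the letters of their motifs were looked for in the promoters. RefSeq windows of assembly GRCm38.p6, from 250 bases before to 50 bases after the start of transcription, existed for 65 of the 80 genes. Searched on both strands, the NRF1 letters GCGCNTGCG stood in 22 of these 65 (33.8%), against 17.4% of 6068 tested genes with a window and 7.12% of all 27025 genes with a window. The letters CCGGAAGT of GABPA and other ETS factors stood in 5 (7.69%), against 10.3% of the tested genes. AAGATGGCG, for YY1, stood in 6 (9.23%), against 4.12% of the tested genes, and TCAAGGTCA, for estrogen-related receptors, in 2 (3.08%), against 0.346%. No matches of 2 different motifs overlapped in these genes. A match is a description of letters and not a binding site.

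The NRF1 letters were spread unevenly over the complexes. They stood in 6 of 30 promoters of complex I (20%), 2 of 3 of complex II, 3 of 5 of complex III, the 1 of cytochrome c, 1 of 11 of complex IV (9.09%) and 9 of 15 of complex V (60%). Among subunit genes called higher 4 of 11 held them (36.4%), against 17 of 48 among those that did not pass (35.4%). The shares of called and uncalled genes were close to each other. Whether NRF1 has a part in the changes was not tested. The 5 stretches printed here run from 150 bases before to 50 bases after the start, 5′ to 3′ on the strand of the gene, with the matched letters of either strand in capitals. Ndufa5 and Ndufb10 are complex I genes that were higher, and Uqcr11 is the complex III gene that was higher and also holds the ETS letters. Cycs and Atp5g3 did not pass the test, and Atp5g3 also holds the letters of estrogen-related receptors.
Ndufa5, chr6:24527641-24527840, minus strand: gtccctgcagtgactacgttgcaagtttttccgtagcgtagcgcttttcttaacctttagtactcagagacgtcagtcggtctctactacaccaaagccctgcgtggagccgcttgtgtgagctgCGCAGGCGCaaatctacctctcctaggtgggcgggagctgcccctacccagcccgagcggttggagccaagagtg
Ndufb10, chr17:24724374-24724573, minus strand: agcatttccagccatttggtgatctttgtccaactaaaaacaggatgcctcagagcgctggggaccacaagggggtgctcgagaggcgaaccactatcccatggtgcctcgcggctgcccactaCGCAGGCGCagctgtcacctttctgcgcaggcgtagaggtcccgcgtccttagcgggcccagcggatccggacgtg
Uqcr11, chr10:80406772-80406971, minus strand: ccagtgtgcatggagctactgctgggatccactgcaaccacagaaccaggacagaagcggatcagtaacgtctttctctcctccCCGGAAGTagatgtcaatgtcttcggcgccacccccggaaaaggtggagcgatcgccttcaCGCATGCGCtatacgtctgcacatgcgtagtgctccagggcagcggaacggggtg
Cycs, chr6:50566520-50566719, minus strand: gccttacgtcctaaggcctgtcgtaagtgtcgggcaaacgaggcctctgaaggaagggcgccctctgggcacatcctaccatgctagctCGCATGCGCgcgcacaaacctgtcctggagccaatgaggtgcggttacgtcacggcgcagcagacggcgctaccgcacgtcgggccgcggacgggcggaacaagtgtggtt
Atp5g3, chr2:73911277-73911476, minus strand: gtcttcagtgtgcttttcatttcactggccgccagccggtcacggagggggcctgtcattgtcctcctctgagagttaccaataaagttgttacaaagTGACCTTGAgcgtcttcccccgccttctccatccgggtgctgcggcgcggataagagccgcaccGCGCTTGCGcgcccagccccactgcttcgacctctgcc
In these stretches the NRF1 letters begin 25 bases before the start in Ndufa5, 26 before it in Ndufb10, 5 before it in Uqcr11 and 61 before it in Cycs. In Atp5g3 they begin at base 13 of the transcript.

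Complex I is built from core subunits that carry the flavin and the iron-sulfur clusters or pump protons, and from many accessory subunits around them. The gene that moved most was Ndufa5, an accessory subunit of the arm that reaches into the matrix. Its signals were 659 and 557 in Folr1-/- embryos, against 257, 317 and 325 in Folr1+/+ embryos. The Folr1-/- arrays were both above every Folr1+/+ array, and the log2 fold change was 0.99 ± 0.16 (SE, 2 against 3 arrays, limma, adjusted p = 0.0021), a ratio of mean signals of 2.03. A second probe set of Ndufa5 gave 318 and 305 in Folr1-/- embryos, against 125, 190.2 and 143 in Folr1+/+ embryos, which is a fold change of 0.97.

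Several subunits of the membrane arm were also higher. Ndufb9, an accessory subunit near the far end of that arm, had signals of 1503 and 1498 in Folr1-/- embryos, against 983, 730.1 and 869.6 in Folr1+/+ embryos. Its log2 fold change was 0.80 ± 0.16 (adjusted p = 0.0054). A dimmer probe set of Ndufb9 gave overlapping groups (329 and 220.0 in Folr1-/- embryos, against 207, 357 and 207 in Folr1+/+ embryos), so the call rests on the brighter probe set. Ndufb10 and Ndufb7, which face the intermembrane space and are held by disulfide bonds, were both higher. Ndufb10 had signals of 128 and 159 in Folr1-/- embryos, against 103, 77.8 and 60.2 in Folr1+/+ embryos, and its change was 0.74 ± 0.22 (adjusted p = 0.038). Ndufb7 had signals of 1286 and 1319 in Folr1-/- embryos, against 805, 718 and 897 in Folr1+/+ embryos, and its change was 0.69 ± 0.15 (adjusted p = 0.0091). The groups did not overlap in either gene, and Ndufb10 had the wider relative spread. A dimmer probe set of Ndufb7 gave overlapping groups and a change of 0.24. It had signals of 112 and 91.4 in Folr1-/- embryos, against 94.4, 83.7 and 73.4 in Folr1+/+ embryos.

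Ndufa2, an accessory subunit of the matrix arm with a thioredoxin-like fold, was higher as well. Its signals were 513 and 510.2 in Folr1-/- embryos, against 295, 301 and 326 in Folr1+/+ embryos. All Folr1-/- values lay above all Folr1+/+ values, with a log2 fold change of 0.71 ± 0.15 (adjusted p = 0.0074). Ndufa13, also known as GRIM-19 from work on cell death induced by interferon and retinoic acid, had signals of 1470.2 and 1488 in Folr1-/- embryos, against 1091, 857 and 1026 in Folr1+/+ embryos. Its groups did not overlap either, and its change was 0.58 ± 0.15 (adjusted p = 0.023).

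The other 4 complex I genes past the threshold changed by 0.48 to 0.57 and were named after their values were seen. The X-linked Ndufa1, a small subunit of the membrane arm, had signals of 1073 and 897 in Folr1-/- embryos, against 608, 738 and 621 in Folr1+/+ embryos, and its change was 0.57 ± 0.16 (adjusted p = 0.028). Ndufb5, of the membrane arm, had signals of 253 and 270.1 in Folr1-/- embryos, against 179, 184 and 157 in Folr1+/+ embryos, and its change was 0.55 ± 0.16 (adjusted p = 0.039). Ndufs8, a core subunit that carries iron-sulfur clusters, had signals of 762 and 678 in Folr1-/- embryos, against 461, 476 and 567 in Folr1+/+ embryos, and its change was 0.51 ± 0.15 (adjusted p = 0.044). In these 3 genes the Folr1-/- arrays all lay above the Folr1+/+ arrays. A second probe set of Ndufb5 gave a smaller change, of 0.14. Ndufa12, an accessory subunit of the matrix arm, had signals of 532 and 503 in Folr1-/- embryos, against 340.0, 385 and 374 in Folr1+/+ embryos. Its change was 0.48 ± 0.15 (adjusted p = 0.047). Its other probe sets above the filter gave 0.17, with overlapping groups, and 0.78, and a dim probe set gave -0.15. Ndufs8 and Ndufa12 were the least stable calls, each past the threshold in 6 alternative settings, of 17 for Ndufs8 and of 16 for Ndufa12.

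**Figure D3:**
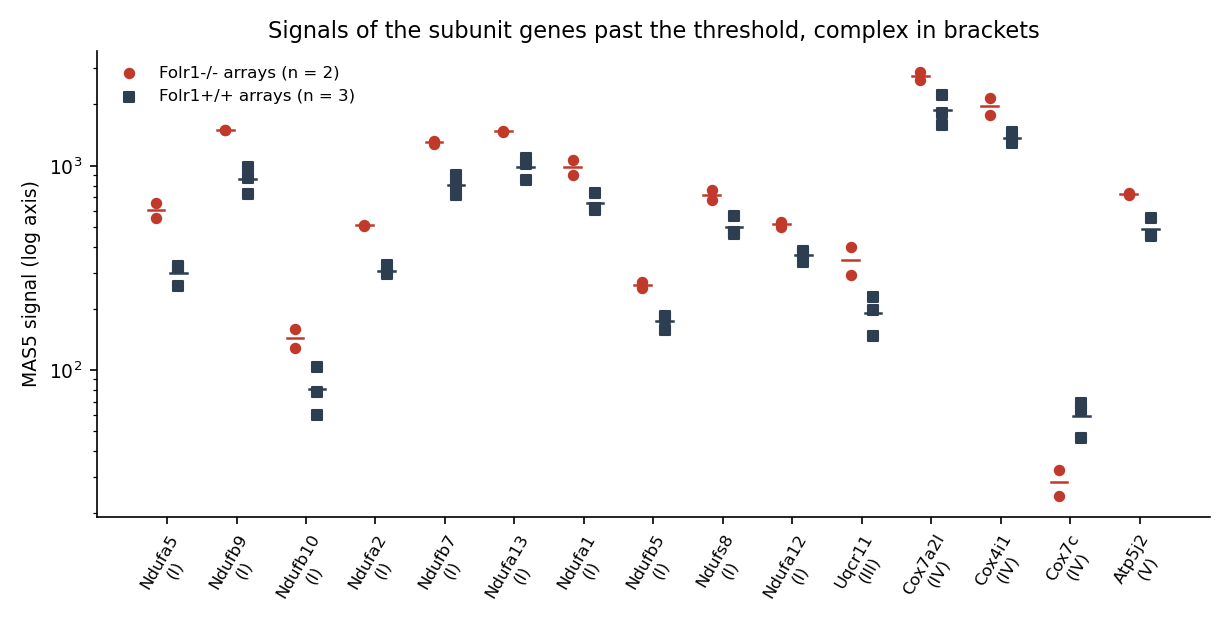
MAS5 signal (log axis) of the 15 subunit genes past the threshold, in the 2 Folr1-/- arrays (red circles, left in each pair) and the 3 Folr1+/+ arrays (dark squares, right), with the group mean as a line. In each of the 15 genes the groups do not overlap, and Cox7c is the gene in which the Folr1-/- arrays lie below. The genes were selected on these same arrays, so this adds no support to the calls. Among all genes tested, both Folr1-/- arrays lie above in 22.5% and below in 24.2%.

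Close to the threshold stood Ndufa4, whose name places it in complex I but whose protein has been found in complex IV. Its signals were 359 and 333 in Folr1-/- embryos, against 236, 184 and 268 in Folr1+/+ embryos. The groups did not overlap, and the difference of 0.58 ± 0.18 (adjusted p = 0.0501) fell just outside the threshold. Ndufb11, another X-linked member, had signals of 1662 and 1547 in Folr1-/- embryos, against 1117, 1173 and 1312 in Folr1+/+ embryos and a difference of 0.42 ± 0.14 (adjusted p = 0.07). Ndufv2, a core subunit with an iron-sulfur cluster, was chosen after its values were seen. It had signals of 772 and 825 in Folr1-/- embryos, against 605, 575 and 583 in Folr1+/+ embryos and a difference of 0.43 ± 0.14 (adjusted p = 0.059). Its groups were clearly apart, and another probe set of it had a difference of 0.92.

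Complex I genes did not all differ between the groups. Ndufv1, the core subunit that binds NADH and the flavin, had signals of 1489.5 and 1395 in Folr1-/- embryos, against 1459.6, 1101 and 1406 in Folr1+/+ embryos. The groups overlapped, with a difference of 0.13 ± 0.16 (adjusted p = 0.62). Ndufs1, the largest core subunit with iron-sulfur clusters, and Ndufa7, an accessory subunit, were the tested complex I genes with a negative sign, and both were picked out after their values were seen. Ndufs1 had signals of 769 and 647 in Folr1-/- embryos, against 953, 819 and 733 in Folr1+/+ embryos and a difference of -0.23 ± 0.16 (adjusted p = 0.37). Ndufa7 had signals of 174 and 177 in Folr1-/- embryos, against 191, 267 and 204 in Folr1+/+ embryos, with both Folr1-/- arrays below, and a difference of -0.30 ± 0.18 (adjusted p = 0.29). Over the 6 tested core subunits 1 was higher (16.7%) and the median was 0.31, and over the 26 tested accessory subunits 9 were higher (34.6%) and the median was 0.43, beside 8.19% of all genes called higher. This split, like those within complexes IV and V, was chosen after the values were seen.

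In 24 of the 32 tested complex I genes both Folr1-/- arrays lay above all Folr1+/+ arrays, and in 1 both lay below, beside 22.5% and 24.2% of all genes. Of the 59 complex I probe sets above the filter, 51 had a positive fold change. At an unadjusted p under 0.05, 18 complex I genes were positive and 0 were negative, beside 1114 and 1116 of all 7436 genes (15.0% each). Only Ndufb1 was too dim to be tested, with signals of 27.6 and 26.2 in Folr1-/- embryos, against 22.1, 38.3 and 24.9 in Folr1+/+ embryos.

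Complex II is the smallest of the complexes, and none of its 4 genes passed the test in limma, while 1 had an unadjusted p under 0.05. Sdha, the flavoprotein that oxidises succinate, had signals of 1586 and 1405 in Folr1-/- embryos, against 1208, 1336 and 1308 in Folr1+/+ embryos, with a difference of 0.22 ± 0.14 (adjusted p = 0.33). Sdhb, the iron-sulfur subunit, had signals of 696 and 662 in Folr1-/- embryos, against 606, 459.6 and 569 in Folr1+/+ embryos, with a difference of 0.32 ± 0.16 (adjusted p = 0.20). The groups of Sdha and Sdhb did not overlap, but neither difference passed the test. With Sdhd, both Folr1-/- arrays lay above all Folr1+/+ arrays in 3 of the 4 genes, beside 22.5% of all genes. A second probe set of Sdha had overlapping groups and a difference of 0.07. Sdhc and Sdhd anchor the enzyme in the membrane. Sdhd had signals of 505 and 585 in Folr1-/- embryos, against 477, 279 and 359 in Folr1+/+ embryos, with a difference of 0.56 ± 0.20 (adjusted p = 0.086), and passed the threshold only without Folr1+/+ replicate 1. Sdhc had signals of 476 and 345 in Folr1-/- embryos, against 374, 305 and 374 in Folr1+/+ embryos, with a difference of 0.20 ± 0.18 (adjusted p = 0.48), and its groups overlapped.

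In complex III a single gene was higher. Uqcr11, a very small subunit, had signals of 292 and 399.6 in Folr1-/- embryos, against 148, 228 and 196 in Folr1+/+ embryos. The groups did not overlap, and the change was 0.81 ± 0.20 (adjusted p = 0.02). Uqcrb, which helps to bind ubiquinone, had signals of 4168 and 4643 in Folr1-/- embryos, against 3759, 3924 and 3787 in Folr1+/+ embryos. Its groups lay close but apart, with a difference of 0.20 ± 0.13 (adjusted p = 0.34). Cyc1, the cytochrome c1 that hands electrons to cytochrome c, had signals of 2458 and 2142 in Folr1-/- embryos, against 2670.2, 2588 and 3388 in Folr1+/+ embryos. Here both Folr1-/- arrays lay below all Folr1+/+ arrays, and the difference of -0.32 ± 0.16 (adjusted p = 0.20) did not pass. The other 6 genes had overlapping groups and differences between -0.09 (Uqcr10) and 0.32 (Uqcrq). Among them were the core proteins Uqcrc1 and Uqcrc2, at 0.11 and 0.04, and the Rieske protein Uqcrfs1, at 0.15.

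Cycs encodes cytochrome c, the electron carrier that also takes part in programmed cell death. Its signals were 711 and 1084 in Folr1-/- embryos, against 835, 665 and 643 in Folr1+/+ embryos. The 2 Folr1-/- arrays differed more from each other than the group means did, and the difference of 0.30 ± 0.19 (adjusted p = 0.32) did not pass. It was 0.60 when Folr1-/- replicate 1 was left out and 0.00355 when Folr1-/- replicate 2 was.

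Complex IV had genes in both directions. Cox7a2l, related to a complex IV subunit and known for joining complexes III and IV into supercomplexes, had signals of 2636 and 2883 in Folr1-/- embryos, against 1824, 2229 and 1587 in Folr1+/+ embryos. The groups did not overlap, the change was 0.56 ± 0.16 (adjusted p = 0.037), and 2 further probe sets of the gene gave 0.55 and 0.33. Cox4i1, the common form of the largest nuclear-encoded subunit, had signals of 2151 and 1772 in Folr1-/- embryos, against 1299.6, 1355 and 1465 in Folr1+/+ embryos, and its change was 0.50 ± 0.15 (adjusted p = 0.038). The Folr1-/- arrays lay above all Folr1+/+ arrays in both genes. Cox7c, a small structural subunit, was the 1 subunit gene that was lower. Its signals were 24.2 and 32.4 in Folr1-/- embryos, against 46.5, 68.6 and 63.5 in Folr1+/+ embryos, and its change was -0.76 ± 0.21 (adjusted p = 0.033). All its values are dim, where the added 16 understates a fold change. Its mean log2(signal + 16) was 5.46 in Folr1-/- embryos and 6.23 in Folr1+/+ embryos, with the filter at 5.52, and with a filter at the 60th percentile it was not tested. A still dimmer probe set of Cox7c also had both Folr1-/- arrays below.

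Several subunits exist in tissue forms or in copies, most of them in complex IV. Over all complexes 11 of 16 such genes on the array could be tested, and 2 of them (18.2%), Cox7a2l and Cox4i1, were higher, beside 8.19% of all genes. Among the forms found in most tissues, Cox6b1 had signals of 3355 and 2699 in Folr1-/- embryos, against 1887, 2331 and 2343 in Folr1+/+ embryos, with a difference of 0.46 ± 0.16 (adjusted p = 0.069). Cox7a2 had signals of 1582 and 1483 in Folr1-/- embryos, against 985, 1128 and 1337 in Folr1+/+ embryos, with a difference of 0.42 ± 0.16 (adjusted p = 0.096). Cox6a1 had signals of 2649 and 2622 in Folr1-/- embryos, against 2044, 2391 and 2338 in Folr1+/+ embryos, with a difference of 0.22 ± 0.14 (adjusted p = 0.30). In these 3 genes the Folr1-/- arrays lay above, a pattern that 22.5% of all genes had, but the differences did not pass. A second probe set of Cox6b1 had overlapping groups and a difference of -0.06, while those of Cox7a2 and Cox6a1 had 0.28 and 0.72. Cox8a had signals of 150.2 and 126 in Folr1-/- embryos, against 131, 129.6 and 95.2 in Folr1+/+ embryos, with a difference of 0.20 ± 0.19 (adjusted p = 0.51). A second probe set of Cox8a went the other way, at -0.63. Cox8c, a form known from testis, had signals of 56.9 and 42.6 in Folr1-/- embryos, against 43.5, 67.8 and 30.8 in Folr1+/+ embryos, and its groups overlapped. The forms of heart and skeletal muscle, Cox6a2, Cox7a1 and Cox8b, were too dim to be tested, as were Cox4i2 and Cox6b2. Cox6a2 had signals of 13.03 and 15.7 in Folr1-/- embryos, against 30.4, 16.7 and 31.5 in Folr1+/+ embryos, with both Folr1-/- arrays below, on a scale where the filter lay at 30. The muscle forms of complex IV could therefore not be compared between the groups, while 7 of 13 cardiomyocyte markers were lower, beside 6.79% of all genes.

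In complex V 1 of 16 tested genes was higher, a share of 6.25% beside 8.19% of all genes. Atp5j2, subunit f of the membrane part, had signals of 721 and 737 in Folr1-/- embryos, against 456, 459 and 557 in Folr1+/+ embryos. The groups did not overlap, and the change was 0.56 ± 0.15 (adjusted p = 0.028). A dimmer probe set of Atp5j2 had overlapping groups and a difference of 0.01. The head and central stalk, where ATP is made, had 0 of 5 genes called and 0 at an unadjusted p under 0.05 in limma, with a median of 0.15. Atp5a1, the alpha subunit of the head, had signals of 4444 and 3718 in Folr1-/- embryos, against 3413, 5142 and 4026 in Folr1+/+ embryos, with a difference of -0.02 ± 0.18 (adjusted p = 0.94). Its groups overlapped, and the sign turned under other scalings. The beta subunit gene Atp5b, chosen after its values were seen, stood at 0.14.

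The c ring of ATP synthase, which turns as protons pass, is encoded by 3 genes whose mature proteins are the same. Atp5g3 had signals of 3814 and 4140.4 in Folr1-/- embryos, against 3935, 4496 and 3789.7 in Folr1+/+ embryos. Atp5g1 had signals of 79.3 and 94.1 in Folr1-/- embryos, against 94.3, 77.4 and 82.9 in Folr1+/+ embryos. Atp5g2 had signals of 156 and 130.0 in Folr1-/- embryos, against 127, 149.9 and 128 in Folr1+/+ embryos. All 3 had overlapping groups, with differences of -0.03 ± 0.14, 0.03 ± 0.18 and 0.07 ± 0.17 (adjusted p = 0.90, 0.94 and 0.81), and 0 had an unadjusted p under 0.05. Over the peripheral stalk (Atp5pb, Atp5h, Atp5j and Atp5o) 0 of 4 passed, 0 had an unadjusted p under 0.05, and the median was 0.24. Atp5l, subunit g, was too dim to be tested.

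Agreement between probe sets of the same gene varied. Of 39 tested subunit genes with more than 1 probe set above the filter, 27 had all of them on the same side of 0, and the median span between the probe sets of a gene was 0.30. Of the 8 called genes with more than 1 such probe set, 7 had them on the same side. The exception was Ndufs8, whose 6 probe sets ranged from -0.54 to 0.51. The widest span, 1.65, was that of Cox5b, a subunit that binds zinc. Its probe sets ranged from 28.4 and 31.1 in Folr1-/- embryos, against 71.7, 70.9 and 66.03 in Folr1+/+ embryos to 2319.7 and 2094 in Folr1-/- embryos, against 1411, 1118 and 1420.2 in Folr1+/+ embryos, so a dim probe set was lower and a bright probe set higher. Atp5c1, the gamma subunit of the ATP synthase stalk, had 0.20 with its bright probe set and -1.03 with a dim probe set. Without probe sets that can match several transcripts (suffixes s and x), the dim probe set of Atp5c1 passed the threshold as lower, 9 genes were higher and the median of complex V was 0.03.

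**Figure D4:**
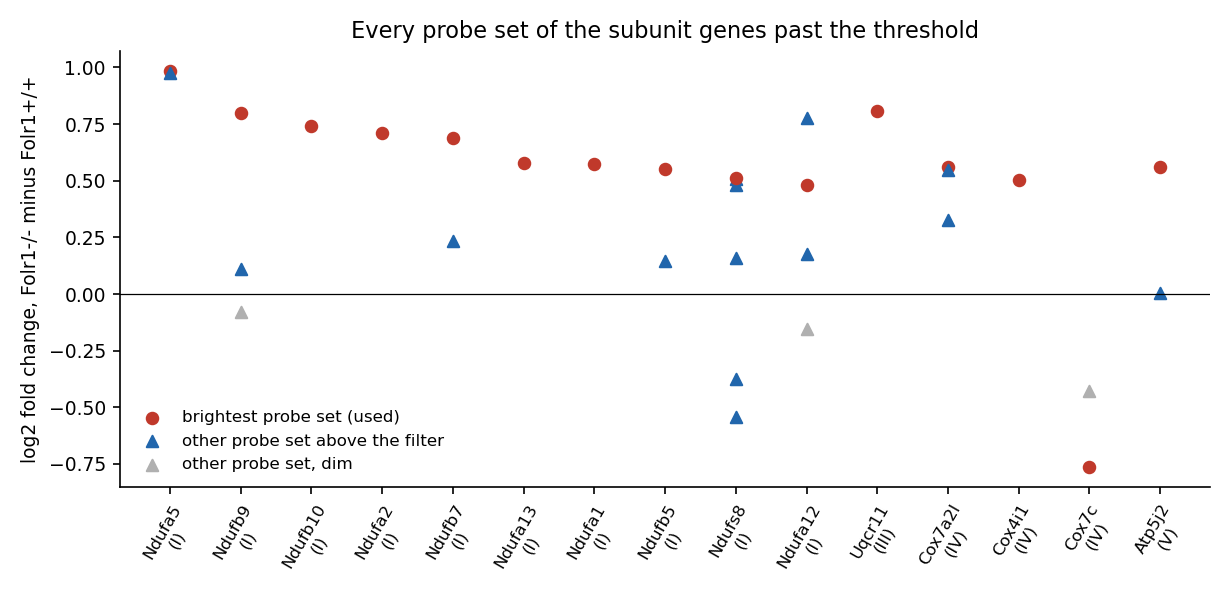
Log2 fold change (Folr1-/- minus Folr1+/+, vertical axis) of every probe set of the 15 subunit genes past the threshold. Red circles are the brightest probe sets, which were tested, blue triangles are others above the filter and grey triangles are dim ones. The probe sets of Ndufa5 and Cox7a2l lie on the same side, and those of Ndufs8 range from -0.54 to 0.51.

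The other genes of the pathway did not follow the subunit genes as a whole. Of the 13 subunits encoded by mitochondrial DNA, ND5 was on the array with a usable probe set, with signals of 3670.0 and 3139 in Folr1-/- embryos, against 2887, 4112 and 2868 in Folr1+/+ embryos and overlapping groups. Of 29 tested assembly factors 2 were higher and 1 was lower, beside 8.19% and 6.79% of all genes, and their median was -0.06. Timmdc1, an assembly factor of complex I, had signals of 78.04 and 91.00 in Folr1-/- embryos, against 42.8, 25.7 and 21.8 in Folr1+/+ embryos, and its change was 1.15 ± 0.23 (adjusted p = 0.006). Its mean log2(signal + 16) was 6.65 in Folr1-/- embryos and 5.50 in Folr1+/+ embryos, so it passed the filter at 5.52 only through the Folr1-/- arrays. Cox17, a copper chaperone for complex IV, had signals of 322 and 318 in Folr1-/- embryos, against 135, 141 and 173 in Folr1+/+ embryos, and its change was 1.03 ± 0.17 (adjusted p = 0.0018). The factor that was lower was Ndufaf4, of complex I assembly, with signals of 209 and 249 in Folr1-/- embryos, against 321, 369 and 341 in Folr1+/+ embryos and a change of -0.56 ± 0.16 (adjusted p = 0.036). In all 3 genes the groups did not overlap.

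Regulators of respiratory genes and of mitochondrial DNA had 1 gene higher and 1 lower of 14 (7.14% each), which is near the 8.19% and 6.79% of all genes, and a median of -0.06. Polg, the polymerase of mitochondrial DNA, had signals of 414 and 379 in Folr1-/- embryos, against 252, 240.0 and 234 in Folr1+/+ embryos, and its change was 0.68 ± 0.15 (adjusted p = 0.011). Gabpa, the DNA-binding part of the factor whose letters were searched in the promoters, had signals of 212 and 206 in Folr1-/- embryos, against 288, 388 and 334 in Folr1+/+ embryos, and its change was -0.64 ± 0.17 (adjusted p = 0.024). The citric acid cycle and pyruvate dehydrogenase had 0 of 16 genes called in limma, 3 with an unadjusted p under 0.05, and a median of 0.05. The nearest were Suclg1, a subunit of succinyl-CoA ligase, at 0.52 ± 0.17 (adjusted p = 0.062), and Mdh2, the malate dehydrogenase of mitochondria, at 0.36 ± 0.14 (adjusted p = 0.10). The carriers of ATP, phosphate and other anions had 0 of 6 called and 1 with an unadjusted p under 0.05. Slc25a4, an ADP/ATP carrier known for its role in heart and muscle, stood at 0.45 ± 0.14 (adjusted p = 0.0505) and its relative Slc25a5 at -0.23 ± 0.14 (adjusted p = 0.30).

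Mitochondrial ribosomal proteins, which make the subunits encoded by mitochondrial DNA, had 5 of 74 genes higher and 0 lower, with a median of 0.15. Their 5 calls are 6.76%, near the 8.19% of all genes. The sign was positive in 55 of the 74 (74.3%), against 47.9% of all genes. Both Folr1-/- arrays lay above all Folr1+/+ arrays in 26 of them and below in 3, beside 22.5% and 24.2% of all genes. At an unadjusted p under 0.05 in limma, 11 of the 74 were positive and 1 was negative, beside 15.0% of all genes in each direction. The positive count is thus near the share over all genes. The member that changed most, Mrpl18, had signals of 359.9 and 367 in Folr1-/- embryos, against 163, 163 and 154 in Folr1+/+ embryos, and its change was 1.11 ± 0.15 (adjusted p = 0.00061). Mrpl22, Mrpl27 and Mrpl17 changed by 0.78, 0.71 and 0.67.

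The list of glycolysis, the route that makes ATP outside mitochondria, had more genes lower than higher. It also counts Pdk1, which regulates pyruvate dehydrogenase and is not an enzyme of that route. Of 15 tested genes 7 were lower and 1 was higher, beside 6.79% and 8.19% of all genes, and the median was -0.56. The sign was negative in 13 of the 15. Pdk1, the kinase that holds pyruvate dehydrogenase back, had signals of 251 and 282 in Folr1-/- embryos, against 725, 789 and 589 in Folr1+/+ embryos, and its change was -1.34 ± 0.17 (adjusted p = 0.00029). Ldha, a subunit of lactate dehydrogenase, had signals of 4905 and 4686 in Folr1-/- embryos, against 8131, 10102 and 8349 in Folr1+/+ embryos, and its change was -0.88 ± 0.14 (adjusted p = 0.0019). Hk1, a hexokinase, had signals of 94.4 and 83.03 in Folr1-/- embryos, against 149, 166 and 159 in Folr1+/+ embryos, and its change was -0.73 ± 0.17 (adjusted p = 0.013). The groups of these 3 genes were well apart. The gene that was higher was Ldhb, the other lactate dehydrogenase subunit and the main form in heart. It had signals of 1335 and 1062 in Folr1-/- embryos, against 483, 592 and 584 in Folr1+/+ embryos, and its change was 1.09 ± 0.16 (adjusted p = 0.00091).

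**Figure D5:**
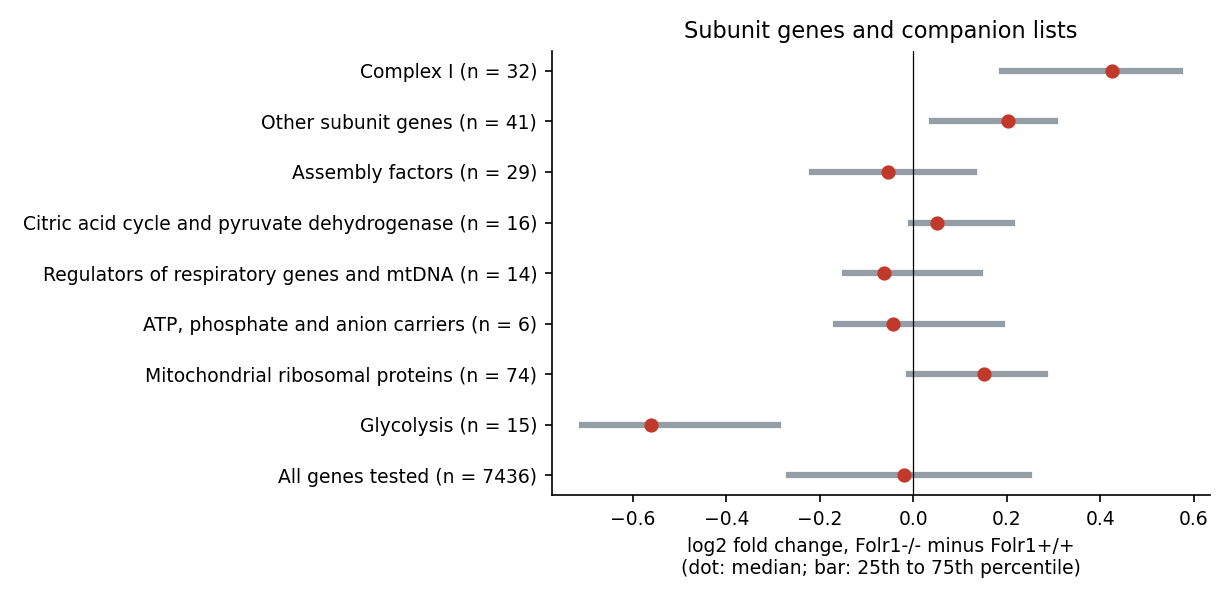
Median log2 fold change (dot) and 25th to 75th percentile (bar) of complex I, of the other subunit genes and of related gene lists, with all genes tested at the bottom. Complex I has a median of 0.42, mitochondrial ribosomal proteins have 0.15 and glycolysis has -0.56, beside -0.02 for all genes.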

How the data were processed

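The deposited table holds signal intensities of 22690 probe sets on a linear scale, made by the authors with MAS5 per the submitters' processing notes. The sources used here name no version, and the scaling left a trimmed mean of 150.1 on every array. Per the labels' protocols RNA was amplified in 2 rounds, which favours 3' ends. Detection calls were not used here.

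Apart from 64 controls, the platform annotation gave a single symbol to 20380 probe sets and several to 691, while 1555 were unlisted, and no symbol needed an update against RefSeq of assembly GRCm38.p6. The brightest probe set stood for each of 12393 genes, and the 7436 genes at or over the 40th percentile of brightness were kept. The test was limma 3.58.1 under R 4.3.3, with lmFit and a trended eBayes on log2(signal + 16), 2 Folr1-/- against 3 Folr1+/+ arrays, 3 residual degrees of freedom and Benjamini-Hochberg adjustment over the 7436 genes at a threshold of 0.05. Fold changes are on that log2 scale as Folr1-/- minus Folr1+/+ with their standard error, and understate the change of dim genes. The code was tested on simulated arrays. The number of arrays limits the precision.

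The members and lists were chosen with earlier results of these data known, so their counts are descriptions and no list was tested. Named by rule were, per complex, up to 6 called genes by size of change, the 2 brightest, and, where fewer than 3 were thus named, those with the smallest unadjusted p. All members of complex II, Cyc1, Cycs, the tested tissue and copy isoforms, and at most 4 called genes per related list, or else 2 by unadjusted p, were added. This took 48 genes, and others were chosen after their values were seen. The deviations of same-numbered arrays from their group means had correlations over genes of 0.02 and -0.06, and the arrays were not treated as pairs. With 2 Folr1-/- arrays these deviations mirror each other, so the correlations cannot exclude a shared litter or batch. Alternatives were pseudocounts, filters, scalings, the mean of probe sets, no trend, array weights, a replicate block, the Actb ratio as a covariate and leaving out each array. In the replicate block Folr1+/+ replicate 3 has no partner and drops out. Its fold changes therefore equal those of the fit without that array, and these settings are not separate checks of a fold change. Leaving out probe sets with s and x suffixes was chosen after seeing the data.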

Additional observations from a re-analysis of the deposited data

Results flagged for a closer look

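A pair of probe sets carry several gene symbols and stayed outside the comparison, but had both Folr1-/- arrays above all Folr1+/+ arrays. They were picked for this pattern, which 22.5% of all genes tested also had. The probe set of Ndufs5 and its pseudogene Ndufs5-ps had signals of 191 and 173 in Folr1-/- embryos, against 139, 149.8 and 131 in Folr1+/+ embryos, a log2 fold change of 0.34. The probe set of Ndufa11 and its copy Ndufa11b had signals of 115 and 98.5 in Folr1-/- embryos, against 56.7, 75.8 and 76.8 in Folr1+/+ embryos, a log2 fold change of 0.52. The groups hold 2 and 3 arrays, too few for a test of single outlying arrays.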

How the results depend on the processing

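All 15 called subunit genes kept their sign in every setting that tested them, while the counts moved. Most settings could not have turned a sign, so this adds little. The filters and the fit without a trend leave each fold change as it is. On the same probe set, other pseudocounts, array weights, the replicate block and leaving out an array cannot turn it, since the groups did not overlap. A sign could turn with centring, quantile normalization, the mean of probe sets, the Actb covariate or other probe sets. The 14 higher genes became 4 with no filter, 9 with no intensity trend and 9 without s and x probe sets, and 2 to 8 when an array was left out. The 1 lower gene became 0 with no filter, with the stricter filter (60th percentile), with the mean of probe sets and with the replicate block, and 0 to 1 when an array was left out. Complex I had 4 called genes with no filter, 6 without s and x probe sets, 7 with the mean of probe sets, with quantile normalization and with no trend, and 1 to 7 when an array was left out. Complex II had 0 to 1, complex III 0 to 1, complex IV 0 to 1, complex V 0 to 1 and cytochrome c 0 when an array was left out. With no filter complexes III, IV and V had 0, complex IV had 1 with no trend and 0 with the replicate block, and complex V had 0 with the mean of probe sets. With no filter more genes are tested, and the cause of the other changes was not tested. The calls over all genes numbered 747 with no filter, 899 with the replicate block, 1376 with array weights, and 369 to 1007 when an array was left out. Leaving out Folr1-/- replicate 1 gave 369, Folr1-/- replicate 2 gave 664 and Folr1+/+ replicate 3 gave 636. Centring each array on its median gave 733 higher and 361 lower, beside the 609 and 505 reported.

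The medians stayed positive in each complex under all settings. That of all subunit genes was 0.343 with centring and 0.204 to 0.355 when an array was left out. Complex I had 0.371 with a pseudocount of 64, 0.498 with centring, 0.347 with the mean of probe sets, and 0.384 to 0.465 when an array was left out. Complex III had 0.22 with centring, 0.0869 with the Actb covariate, and 0.0288 to 0.19 when an array was left out. Complex IV had 0.299 with centring, 0.286 with the mean of probe sets, 0.339 without s and x probe sets, and 0.217 to 0.271 when an array was left out. Complex V had 0.22 with centring, 0.0277 without s and x probe sets, and 0.107 to 0.162 when an array was left out. Under the same omissions complex II ranged from 0.206 to 0.392 and cytochrome c from 0.00355 to 0.60.

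The genes whose sign turned did not pass the test in the reported fit. Atp5a1 had 0.0493 with centring, 0.085 with quantile normalization, 0.00832 with array weights and 0.0617 with the Actb covariate. Atp5g3 had 0.0419, 0.0671 and 0.00503 in the first 3 of these. Atp5g1 had -0.00411 with quantile normalization and -0.0152 with the Actb covariate. With the mean of probe sets Cox8a had -0.282, Atp5g2 -0.16 and Slc25a5 0.0301, and Cox8a had -0.633 without s and x probe sets. With the replicate block Cox8c had -0.112 and ND5 -0.0215. When an array was left out, values ranged from -0.162 to 0.132 for Atp5a1, from -0.0908 to 0.041 for Atp5g3, from -0.0788 to 0.13 for Atp5g1, from -0.0461 to 0.192 for Atp5g2, from -0.112 to 0.308 for Cox8c, from -0.0461 to 0.237 for ND5 and from -0.0189 to 0.429 for Sdhc. Over the 48 named genes and 17 settings, 680 values kept their call and sign, 80 lost the call, 19 gained it and 28 turned. The design has 3 residual degrees of freedom, so genes near the threshold, such as Ndufa4, pass or miss with small changes of setting.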

Other observations

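The other probe sets that list a subunit gene beside a copy or a neighbour had overlapping groups. The brighter probe set of the Ndufb4 copies (Ndufb4, Ndufb4b and Ndufb4c) had signals of 202 and 165 in Folr1-/- embryos, against 208, 99.4 and 155 in Folr1+/+ embryos. That of Ndufs6 and Ndufs6b had 458 and 485 in Folr1-/- embryos, against 334, 469 and 369 in Folr1+/+ embryos. Both had a log2 fold change of 0.28, and a dim probe set of the Ndufb4 copies had 0.37. The sign was negative for the probe set of Ndufb2 and Adck2, at -0.36, and for a dim probe set of Ndufa13 and Yjefn3, at -0.42.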
